A study of Mus musculus with 8 samples.

Results

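The 10 classical histone deacetylase genes other than Hdac3 were followed in mouse liver: Hdac1, Hdac2, Hdac4, Hdac5, Hdac6, Hdac7, Hdac8, Hdac9, Hdac10 and Hdac11. Members were the probe sets that name one of these genes alone in the array annotation, with the probe set of highest mean intensity standing for each gene. All 10 were measured, among 19935 genes in all. The 8 samples were liver RNA of male C57Bl/6 mice that were 10 to 12 weeks old, ate normal chow, lived under alternating 12 h light and 12 h dark and were sampled at zeitgeber time 10, and each sample was hybridised to its own Affymetrix array. The 4 NS-DADm samples carried mutations of the deacetylase-activating domain (DAD) in both corepressors NCOR and SMRT, and the 4 other samples were wild type (WT). No Cre driver, transgene or treatment is named for either group, and the labels do not say whether each array came from a separate mouse, so p-values cover only how these arrays vary, which could be a technical spread.

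Classical histone deacetylases (HDACs) are zinc-dependent enzymes that remove acetyl groups from lysines of histones and other proteins. HDAC3 works inside the NCOR and SMRT corepressor complexes, whose DAD both holds the enzyme and switches it on, and in liver it is known for repressing lipid genes over the day. The other HDACs act in different settings: HDAC1 and HDAC2 in the SIN3, NuRD, CoREST and MiDAC complexes, the class IIa enzymes as signal-responsive partners of transcription factors, and HDAC6, HDAC10 and HDAC11 largely on substrates other than histones. The comparison of NS-DADm with WT livers asked whether transcripts of these enzymes were higher where the corepressors cannot activate HDAC3, and how large a rise the arrays would still allow.

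No member passed the test of a difference between the groups. In a limma fit over all genes, 0 of the 10 passed an adjusted p of 0.05, with adjusted p from 0.829 to 0.995, where 0.271% of all genes passed. At an unadjusted p of 0.05 the count was also 0 of 10, against 9.33% of all genes, and in no member did the 4 arrays of one group lie apart from the 4 of the other, which held for 5.63% of all genes. Both counts rest on the probe set of highest mean. In the other Hdac4 probe set the groups did not overlap, and the 95% interval was -0.27 to -0.01. Log2 fold changes ran from -0.10 (Hdac4) to 0.10 (Hdac8). The median was 0.03 over the 10 members and -0.01 over all genes, with 6 members above 0 and 4 below. Of the 40 single NS-DADm values of the members, 31 lay inside the range of the 4 WT values of the same gene. That count rises with the WT spread, which exceeded the NS-DADm spread in 9 of the 10 members. It was not taken over all genes, so it does not show that levels were equal.

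The absence of a call does not show that levels were equal, so the 95% confidence interval of each change was read for the rise it still allowed. The highest upper bound was 1.27-fold, for Hdac8, and in the other 9 members a rise of 1.25-fold lay outside the interval. The lowest lower bound was 0.801-fold, for Hdac11. In all 10 members both bounds lay within 1.5-fold either way, as they did for 97.2% of all genes. With the level of 0.05 divided by 10, for the 10 members, the wider intervals ran from 0.729-fold (Hdac11) to 1.40-fold (Hdac8), and again all 10 lay within 1.5-fold, against 93.6% of all genes. The same spread set what could be called: the smallest change that would have passed the test ran from 0.30 on the log2 scale (1.23-fold) for Hdac10 to 0.64 (1.56-fold) for Hdac8. This limit depends on how many other genes pass. It reached 0.89 for the least precise member without WT replicate 2, where 13 genes were called in place of 54, and 0.87 without WT replicate 3, where 22 were called. These folds hold on the scale of the arrays, which compresses differences at low intensity, and they concern transcripts, not protein or enzyme activity.

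**Figure D1:**
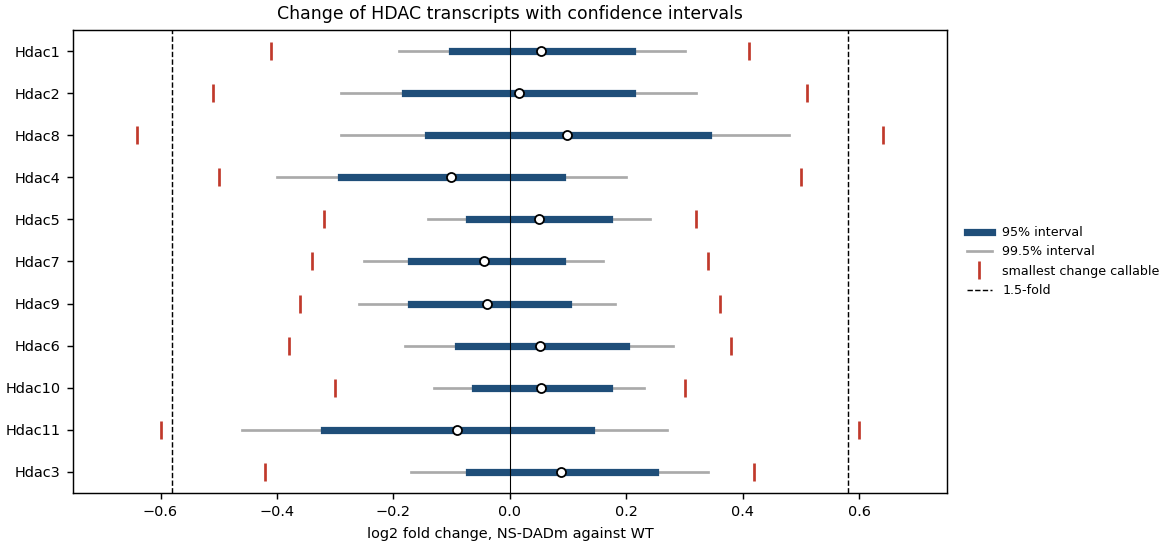
Log2 fold change (x axis) of each HDAC gene in 4 NS-DADm against 4 WT arrays, with Hdac3 in the bottom line for comparison. Circles are the estimates, thick bars the 95% confidence intervals, thin bars the wider ones that allow for 10 members, red ticks the smallest change that would have been called, and dashed lines 1.5-fold. All 10 members have both intervals inside the dashed lines, and Hdac8 and Hdac11 have the widest ones.

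The members' promoters differ widely in base composition. RefSeq promoters (GRCm38.p6) were at hand for 8 members, with 12 start sites, but not for Hdac1 and Hdac10. The CG dinucleotide was counted in the 250 bases before each start. The Hdac2 promoter at chr10:36974294-36974543, plus strand, held 27 of them and was the richest, and the 2 Hdac9 promoters held 2 and 0, against a median of 6 over 32851 promoters. The letters AGGTCA, the half-site that many nuclear receptors bind and through which NCOR and SMRT can be recruited, were sought on both strands. They were found in 2 of the 12 windows, 1 of 4 for Hdac7 and 1 of 2 for Hdac9, against 14% of all promoters. The E-box CACGTG of clock factors was found in 0 of 12, against 6.02% of all. A match is a description of letters, not of a bound site. The Hdac2 window and the Hdac9 window at chr12:34528890-34529139, minus strand, are shown 5′ to 3′, the first as the window with the most CG dinucleotides and the second as a CG-poor window that holds the half-site, which is read on the opposite strand 120 bases before the start and printed in capitals.
Hdac2: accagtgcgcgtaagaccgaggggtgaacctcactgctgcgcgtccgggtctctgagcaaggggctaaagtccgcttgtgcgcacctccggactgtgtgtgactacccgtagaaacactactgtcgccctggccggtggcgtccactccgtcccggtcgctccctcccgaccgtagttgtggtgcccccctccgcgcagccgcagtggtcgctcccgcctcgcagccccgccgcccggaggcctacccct
Hdac9: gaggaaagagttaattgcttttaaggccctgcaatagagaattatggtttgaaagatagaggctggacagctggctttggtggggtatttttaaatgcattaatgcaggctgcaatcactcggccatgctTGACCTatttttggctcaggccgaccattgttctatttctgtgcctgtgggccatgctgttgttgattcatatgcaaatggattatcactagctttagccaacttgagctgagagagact

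The class I enzymes besides HDAC3 are HDAC1, HDAC2 and HDAC8. Hdac1 (Entrez Gene 433759) encodes a catalytic subunit of the SIN3, NuRD and CoREST complexes. Its log2 intensities were 9.48, 9.77, 9.63 and 9.77 in WT replicates 1 to 4 and 9.69, 9.69, 9.76 and 9.73 in NS-DADm replicates 1 to 4. All 4 NS-DADm arrays fell between the lowest and the highest WT array. Averaged over 4 arrays per group (± SD, n = 4), WT stood at 9.66 ± 0.14 and NS-DADm at 9.72 ± 0.03, which gives a log2 fold change of 0.05 (SE 0.070, 95% interval -0.10 to 0.21, limma adjusted p = 0.93). A second probe set that names Hdac1 alone averaged 9.39 ± 0.16 in the WT and 9.47 ± 0.05 in the NS-DADm arrays (SD, n = 4), and its difference of 0.08 came with an upper bound of 1.19-fold. RefSeq also lists an Hdac1 pseudogene, and the annotation gives both probe sets the same transcripts, so the share of signal from each copy is uncertain.

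Hdac2 (Entrez Gene 15182) encodes the close relative that pairs with HDAC1 in these complexes, and its CG-rich promoter is the one printed above. It was at 9.05, 9.19, 8.97 and 9.39 in the WT arrays and at 9.20, 9.18, 9.23 and 9.05 in the NS-DADm arrays. The groups overlapped fully, and the estimate of 0.01 (SE 0.087, adjusted p = 0.995) was the nearest to 0 of the members. An increase above 1.15-fold lay outside its 95% interval. Hdac8 (Entrez Gene 70315), whose product acts alone and deacetylates the cohesin subunit SMC3, was the least precise. Its values were 7.38, 7.38, 7.59 and 7.84 in WT and 7.61, 7.46, 7.72 and 7.80 in NS-DADm livers. The lowest 2 values were both WT, but so was the highest. The difference of 0.10 (SE 0.11, 95% interval -0.14 to 0.34, adjusted p = 0.905) was smaller than the SD of either group, 0.22 in WT and 0.15 in NS-DADm. It was 0.20 (95% interval -0.01 to 0.40, limma adjusted p = 0.434) without WT replicate 4, and 0.04 without WT replicate 1 or WT replicate 2.

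Hdac3 itself, the enzyme whose activation the mutations remove, was at 10.63, 10.70, 10.56 and 10.81 in WT and 10.90, 10.74, 10.77 and 10.64 in NS-DADm livers. Its difference of 0.09 left room for a rise of up to 1.19-fold, in the same range as the upper bounds of Hdac1 and Hdac2 (1.16-fold and 1.15-fold).

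The class IIa enzymes shuttle between nucleus and cytoplasm under the control of kinases and bind MEF2 transcription factors. They have little catalytic activity of their own and rely on HDAC3 complexes for deacetylation, and in liver they are known as targets of fasting signals. Hdac4 (Entrez Gene 208727) had the lowest estimate of the 10. Its values were 8.46, 8.71, 8.56 and 8.90 in WT arrays, but 8.60, 8.55, 8.55 and 8.51 in NS-DADm arrays. WT replicates 2 and 4 lay above every NS-DADm array, and WT replicate 1 below all of them. The log2 fold change was -0.10 (SE 0.086, 95% interval -0.29 to 0.09, adjusted p = 0.829). The other Hdac4 probe set, of nearly the same mean intensity, read 8.70, 8.62, 8.57 and 8.64 in WT and 8.50, 8.54, 8.39 and 8.56 in NS-DADm livers. There the groups did not overlap, with NS-DADm lower by a log2 fold change of -0.14 (95% interval -0.27 to -0.01), but over all probe sets this did not pass the test either (adjusted p = 0.493). Neither probe set left room for a rise above 1.06-fold.

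Hdac5 (Entrez Gene 15184) was at 8.97, 8.82, 8.96 and 8.97 in WT and 8.94, 8.99, 9.01 and 8.97 in NS-DADm livers. A single low array, WT replicate 2, made most of the difference of 0.05 (SE 0.054, adjusted p = 0.90), which was 0.01 without it. Hdac7 (Entrez Gene 56233), known for its role in endothelial cells and thymocytes, was at 8.41, 8.30, 8.35 and 8.18 in WT and 8.23, 8.28, 8.29 and 8.27 in NS-DADm livers. The difference was -0.04 (SE 0.059, adjusted p = 0.932). All 4 NS-DADm arrays lay inside the WT range. Hdac9 (Entrez Gene 79221), which also yields a truncated form without the catalytic domain and has a CG-poor promoter printed above, had a mean of 6.59 ± 0.10 in WT and 6.55 ± 0.04 in NS-DADm livers, with single arrays from 6.48 to 6.72. Those were the lowest intensities among the members' probe sets and lay below the array medians of 7.39 to 7.50. The table holds no detection calls, so whether Hdac9 signal exceeded background was not tested, and its upper bound of 1.07-fold applies to that signal as measured.

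The class IIb enzymes and HDAC11 mainly serve other substrates. Hdac6 (Entrez Gene 15185) encodes a cytoplasmic deacetylase of tubulin, cortactin and HSP90. It was at 8.83, 8.74, 8.57 and 8.83 in WT and 8.75, 8.84, 8.81 and 8.77 in NS-DADm livers, and the difference of 0.05 (SE 0.066, adjusted p = 0.924) came down to 0.00 without WT replicate 3. Hdac10 (Entrez Gene 170787), whose product deacetylates acetylated polyamines, varied least. The 4 NS-DADm arrays lay between 8.46 and 8.49 and the 4 WT arrays between 8.33 and 8.47. Its difference of 0.05 (SE 0.051, adjusted p = 0.87) left room for at most a 1.12-fold rise.

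Hdac11 (Entrez Gene 232232), the sole class IV enzyme, which removes long-chain fatty acyl groups from lysines, spread most among NS-DADm livers. Its values there were 9.04, 9.17, 9.38 and 9.53, against 9.23, 9.34, 9.39 and 9.52 in WT. The NS-DADm group thus held the lowest 2 values and also the highest, and the difference of -0.09 (SE 0.10, 95% interval -0.32 to 0.14, adjusted p = 0.91) was smaller than the NS-DADm SD of 0.22. In the 9 members other than Hdac11 the WT arrays spread more widely than the NS-DADm arrays, as they did for 63.4% of all genes.

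**Figure D2:**
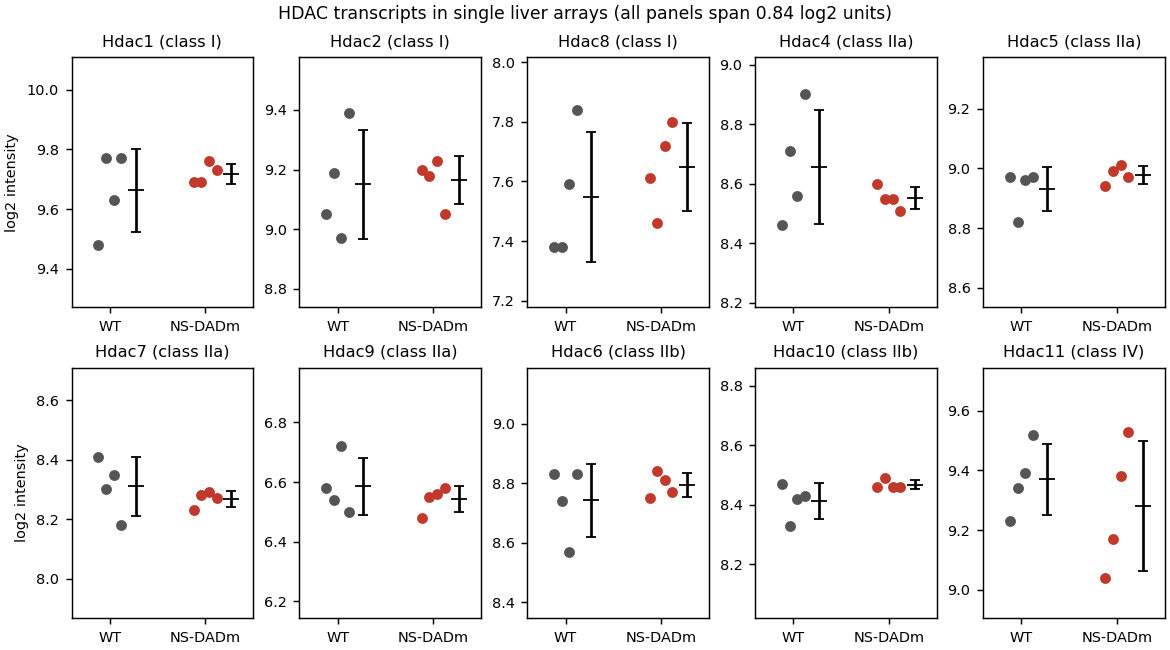
Log2 intensity (y axis) of the 10 HDAC genes in each array, WT in grey and NS-DADm in red, with the group mean and SD (n = 4) as black bars. Every panel spans the same height, so spreads can be compared, while intensities of different probe sets cannot. Each gene is shown by its probe set of highest mean, and there the NS-DADm points overlap the WT points in all 10 panels.

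The WT arrays lay at both ends of the array SDs and medians. WT replicates 1 and 3 had the smallest SD over all probe sets (2.025 and 2.035) and the highest medians (7.50 and 7.48). WT replicates 2 and 4 had the largest SD (2.077 and 2.085) and the lowest medians (7.41 and 7.39). The NS-DADm arrays lay between them, with SDs from 2.053 to 2.075. WT replicates 1 and 3 held the lowest WT values of Hdac1, Hdac2 and Hdac4 and the highest of Hdac7. Such a relation was common on these arrays. Gene values and array SDs were both taken as deviations from their group means and correlated over the 8 arrays. An absolute Pearson r of at least 0.7 was found for 3 of the 10 members and 35.9% of all genes, given as a description only. When the fit included array SD as a term, Hdac1 was at 0.03 (SE 0.043), Hdac2 at -0.01 (SE 0.071), Hdac4 at -0.13 (SE 0.058, 95% interval -0.27 to 0.00, adjusted p = 0.361) and Hdac7 at -0.03 (SE 0.045). No member passed the test in that fit either. Over 8 arrays, the genes whose values were most like those of Hdac4, the member with the largest absolute change, were Gm340 (Pearson r = 0.969), Zfp605 (0.968) and Ccl25 (0.968), taken as the top 3 of all genes and given as a description only, since 8 arrays are few for a choice among 19935 genes.

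**Figure D3:**
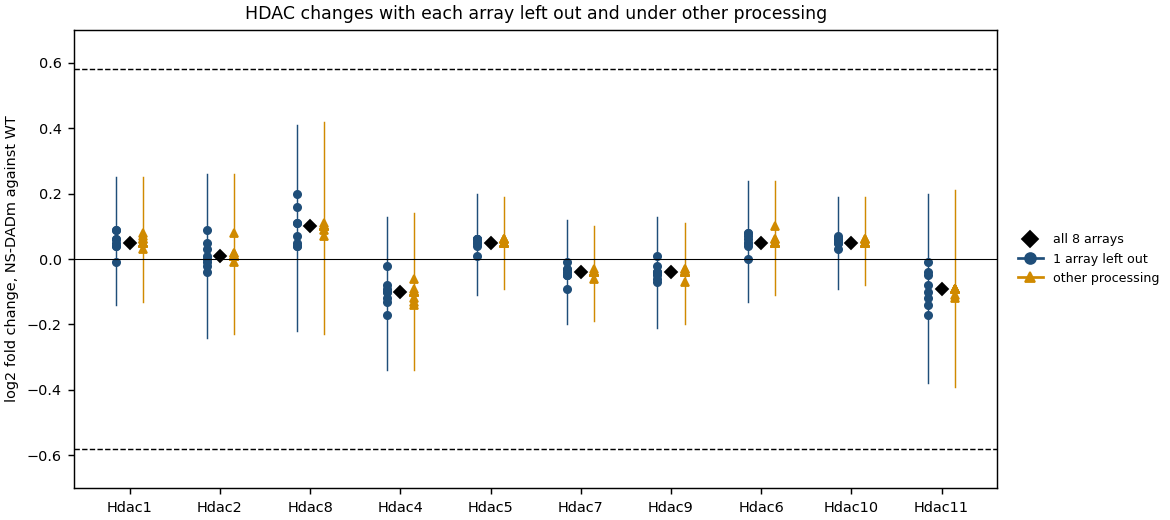
Log2 fold change (y axis) of each HDAC gene with all 8 arrays (black), with 1 array left out (blue, 8 fits) and under other processing (orange), with lines from the lowest to the highest 95% bound of those fits. Dashed lines mark 1.5-fold. No bound of any of these fits reached 1.5-fold, the extremes being 0.761-fold and 1.34-fold.

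Genes that work with these enzymes were read from the same fit. Of 87 measured genes in 11 lists of complex partners, kinases and substrates, 1 passed the test, where 0.271% of all genes passed. The lists were chosen with earlier results of these data known, so where the call fell is a description only. The called gene belonged to the complex of HDAC3. That was Tbl1xr1, a WD-repeat subunit, at 9.83, 9.77, 9.78 and 10.06 in WT and 10.55, 10.55, 10.44 and 10.34 in NS-DADm livers (log2 fold change 0.61, SE 0.078, adjusted p = 0.0118). Its call was lost without WT replicate 2 or WT replicate 3, and in a fit where each gene kept its own variance, which called 0 genes. Tbl1xr1 has 2 probe sets, and only the one of highest mean is given here. Its paralog Tbl1x also had groups that did not overlap, at 0.20 (adjusted p = 0.234), while the remaining subunit Gps2 was at -0.04. Outside that complex 0 of 83 genes passed, against 0.271% of all genes. Among the 83, 11 had an unadjusted p under 0.05, or 13.3% against 9.33% of all genes, and 5 had groups that did not overlap, or 6.02% against 5.63%. Their median log2 fold change was -0.01, equal to that of all genes, with 35 above 0 and 48 below.

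The complexes that hold HDAC1 and HDAC2 had no member past the test. In the SIN3 complex 3 of 15 genes lay above 0 and 12 below, with a median of -0.07. Its largest values were those of Brms1l, an adaptor subunit (-0.19, adjusted p = 0.666), and Ing1, which reads methylated histone H3 (-0.16, adjusted p = 0.468). The 9 NuRD genes had a median of 0.00, with the remodelling ATPase gene Chd3 at 0.21 (adjusted p = 0.399) and Mta2 at 0.16. For CoREST the median of 6 genes was -0.08, with Phf21a, a reader of unmethylated histone H3, at -0.21 and the scaffold gene Rcor3 at -0.20. The 3 MiDAC genes had a median of 0.11, and of these the scaffold gene Mideas was at 0.19 and Dnttip1 at 0.11. Among 11 cohesin genes, the setting of HDAC8, the median was 0.01, and the highest was the cohesin release factor gene Wapl at 0.17 (adjusted p = 0.566), followed by Smc1a at 0.12.

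Among partners of the class IIa enzymes, none passed the test. Of 3 measured MEF2 genes, Mef2d was at -0.14 and Mef2c at 0.01. The 16 kinase genes, whose products phosphorylate class IIa HDACs or act upstream of such kinases, had a median of -0.01. Camk1d, a calcium-calmodulin kinase, was at 8.68, 9.19, 9.44 and 9.54 in WT and 9.62, 9.50, 9.93 and 9.68 in NS-DADm livers. WT replicate 1 was far below the rest, the groups overlapped by 1 NS-DADm array, and the difference of 0.47 (SE 0.17) did not pass the test (adjusted p = 0.386). Its interval, up to 0.84, was the only one among the 83 that reached beyond 1.5-fold. Camk2g was at -0.23 (adjusted p = 0.412). The 7 genes of the phosphoserine-binding proteins that hold class IIa HDACs in the cytoplasm had a median of -0.01, with Ywhag at -0.15 and Ywhaq at -0.14.

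Among genes tied to the substrates of HDAC6 and HDAC10, none passed the test. For HDAC6, Atat1, the tubulin acetyltransferase that opposes it, was at -0.26 (adjusted p = 0.446) and Sqstm1, a ubiquitin-binding autophagy receptor, at 0.19 (adjusted p = 0.399), in a list of 7 with a median of 0.01. In the polyamine list read beside HDAC10, Sat1, which acetylates polyamines, was at 9.72, 9.78, 9.65 and 9.97 in WT and 10.36, 9.98, 10.09 and 10.19 in NS-DADm livers. All 4 NS-DADm arrays were above all WT arrays, yet the change of 0.37 (SE 0.092, 95% interval 0.17 to 0.58) missed the test over all genes (adjusted p = 0.181). Odc1, the first enzyme of polyamine synthesis, was at -0.24 (adjusted p = 0.448), and the 6 polyamine genes had a median of -0.02.

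**Figure D4:**
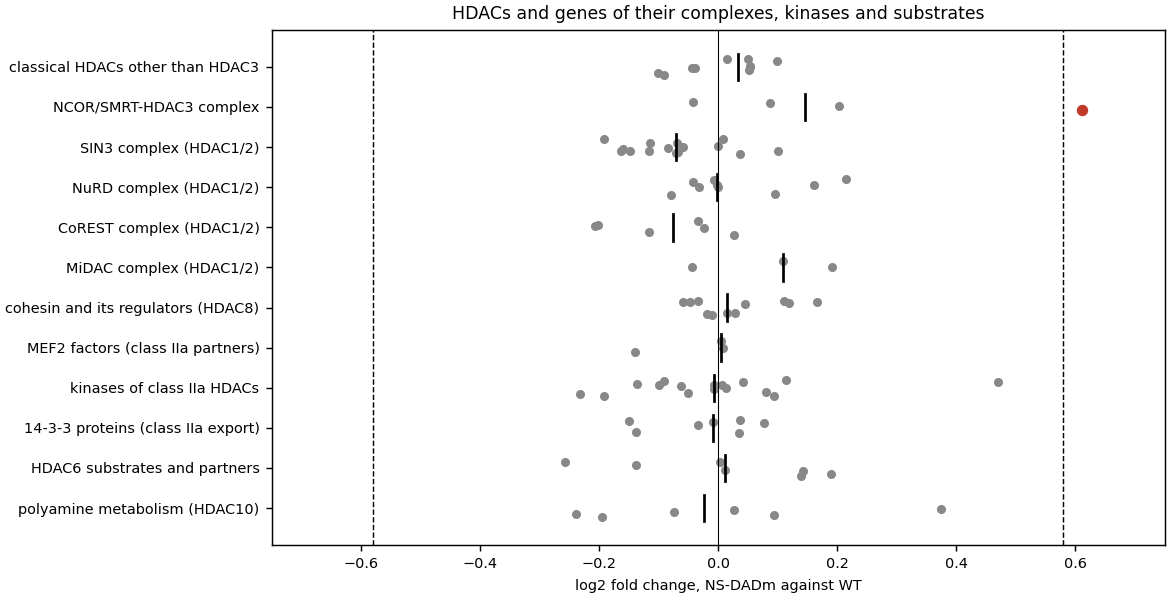
Log2 fold change (x axis) of single genes (points) in the HDAC family and in 11 lists of partner and substrate genes, with list medians as black bars, called genes in red and dashed lines at 1.5-fold. The HDAC genes lie between -0.10 and 0.10, and the 1 called gene, Tbl1xr1 at 0.61, belongs to the HDAC3 complex. The lists were chosen with earlier results of these data known.

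Cell type markers were read beside these values. The 9 measured hepatocyte markers, among them Alb and Hnf4a, were all well above the array medians, the lowest of them at 12.66, with list means per array from 13.59 to 13.60 in WT and 13.56 to 13.58 in NS-DADm livers. Sinusoidal endothelial markers had a median of -0.28, with all 14 below 0 and none past the test. Of the 14, 8 had an unadjusted limma p under 0.05, against 9.33% of all genes. Their mean level ran from 9.45 to 9.60 in WT and 8.96 to 9.60 in NS-DADm arrays. The groups overlapped only through NS-DADm replicate 4, at 9.60, and the other NS-DADm arrays lay below every WT array. Hdac7, the member known from endothelium, was at -0.04 in the same samples, and the part of cell composition in it was not tested. In bulk tissue, fewer cells of a type and less RNA per cell cannot be told apart. Kupffer cell markers had a median of 0.11 over 11 genes, stellate cell markers -0.05 over 10, lymphocyte markers 0.05 over 9 and cholangiocyte markers 0.01 over 5, none with a called gene. Of the 10 stellate markers, 8 lay below 0 and 2 above. Ecm1 (-0.48) and Reln (-0.35) were the 2 at an unadjusted limma p under 0.05, against 9.33% of all genes. Stellate list means ran from 9.20 to 9.41 in WT and 8.88 to 9.49 in NS-DADm arrays. The Kupffer cell markers varied widely between single arrays, with list means from 8.70 to 9.32 in WT and 8.61 to 9.67 in NS-DADm livers. All 9 neutrophil markers lay above 0, with a median of 0.10 and none past the test. Of the 9, 2 had an unadjusted limma p under 0.05, against 9.33% of all genes. Neutrophil list means per array were low, at 6.08 to 6.24 in WT and 6.19 to 6.37 in NS-DADm livers. Those lay below the array medians of 7.39 to 7.50, and whether the signal exceeded background was not tested. The 2 erythroid genes went opposite ways: Alas2, the heme synthesis enzyme of red cell precursors, was at -0.51 with groups that did not overlap (adjusted p = 0.0707), and Slc4a1, the red cell anion exchanger, at 0.10 (adjusted p = 0.652).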

How the data were processed

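Affymetrix arrays of 4 NS-DADm and 4 WT liver RNA samples were analysed from a table of log2 intensities deposited by the authors, with 28270 probe sets. Per the submitters' processing notes the authors used RMA and Partek; their versions and settings and the genome build were not stated. The log2 scale was read from the values (3.43 to 14.37). Array medians ran from 7.39 to 7.50. Their number, 4 per group, limits the precision, and no batch or detection call was given.

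Probe sets were named from the platform annotation, with symbols updated by Entrez identifier (RefSeq, GRCm38.p6): 21780 named 1 gene, 1617 several and 4873 none. The last 2 kinds were not used. Of 19935 genes 19852 matched by identifier. The probe set of highest mean stood for each gene, with no filter.

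The genotypes were compared in limma 3.58.1 in R 4.3.3 (lmFit, eBayes, two-sided, Benjamini-Hochberg over all genes, threshold 0.05). The smallest callable change is a gene's SE times the moderated t at the unadjusted p of the last called gene (0.000134). On simulated data with 200 of 19935 genes changed, for NS-DADm against WT, 19.6% of changes of 0.25 on the log2 scale were recovered, 91.4% of 0.5 and 99.8% of 1, and 95.1% of intervals held the true value. Of the calls there, 5.96% were of unchanged genes. More genes were changed there than the 54 called, and noise was independent between genes, so the shares recovered and held may be too high. Noise was also drawn as normal values with the variances of the fit itself. The share of intervals holding the true value was thus largely set in advance.

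The members and gene lists were chosen with earlier results of these data known. Named are all members and Hdac3, the HDAC3 complex, the called members of each list or else the 2 with the largest absolute change, and the 3 genes most like the member with the largest change. Alternatives were the mean of probe sets, all probe sets, filters at the median and 25th percentile, quantile normalization, median subtraction, trended and robust variances, unshared variances, array weights, array SD as a covariate, the replicate number as a block, a threshold of 0.10, the other probe sets and each array left out. Both mutated genes are among those not analysed here, and genotypes were taken from the labels. Tables and figures used Python 3.11.15, pandas 2.3.3, scipy 1.17.1 and matplotlib 3.10.9.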

Additional observations from a re-analysis of the deposited data

Results flagged for a closer look

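Among the 22 groups of 4 arrays tested (10 HDAC genes and Hdac3 in both genotypes), 1 held an array far from the others. Hdac5 in WT replicate 2 was at 8.82, while the other 3 WT arrays lay at 8.96 and 8.97, so that its gap to the nearest array was 0.956 of the group's range, above Dixon's 95% critical value for 4 values. About 1 in 20 groups passes this limit by chance. The whole WT range of Hdac5 was 0.15, and its log2 fold change was 0.01 without that array and 0.05 with it.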

How the results depend on the processing

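Across 20 alternatives no member passed the test, with a lowest adjusted p of 0.361. Of 191 member results 184 kept their direction and 7 turned it. Hdac2 was at -0.01 with array SD as a covariate, and turned too in fits without NS-DADm replicate 3 (-0.01), without WT replicate 1 (-0.02) or without WT replicate 3 (-0.04). Hdac1 was at -0.01 without WT replicate 1, and without WT replicate 3 Hdac6 was at 0.00 and Hdac9 at 0.01. With 1 array left out the changes ran from -0.01 to 0.09 for Hdac1, -0.04 to 0.09 for Hdac2, -0.17 to -0.02 for Hdac4, 0.01 to 0.06 for Hdac5, 0.00 to 0.08 for Hdac6, -0.09 to -0.01 for Hdac7, 0.04 to 0.20 for Hdac8, -0.07 to 0.01 for Hdac9, 0.03 to 0.07 for Hdac10 and -0.17 to -0.01 for Hdac11. No 95% bound reached 1.5-fold: the highest was 1.34-fold and the lowest 0.761-fold, both with unshared variances. The smallest change callable in every member ran from 0.62 to 0.89 with 1 array left out.

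Over all genes 54 were called, and 109 with array weights, 109 at a threshold of 0.10, 0 with unshared variances in limma (1709 at an unadjusted p under 0.05, and 0 of the 87 partner genes called) and 13 to 126 with 1 array left out. Partner genes called ranged from 0 to 1 with 1 array left out. With the replicate number as a block 105 genes and 0 members were called, and the largest rise left by the members' intervals was 0.24 (1.18-fold). Deviations of same-numbered arrays correlated at 0.15, 0.05, -0.10 and 0.25, and 2 of 4 NS-DADm arrays were most like the WT array of their own number, so the data do not establish that numbers pair the samples, and a shared day or batch was not tested. Under the block the SE of Hdac11 was 0.0623 in place of 0.104 and that of Hdac8 0.0642 in place of 0.110. The cause of these shifts was not tested.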
